A study of Mus musculus with 15 samples.

Results

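The comparison set 3 libraries of mouse secondary palate from the day of birth (P0) against 3 libraries from embryonic day 15.5 (E15.5), over all genes, out of the 15 libraries and 5 stages of the series. The libraries were chosen by their titles, and no measured value entered the choice. All were from wild-type (WT) animals, and no strain, sex, treatment or exact age within the day was used here. Each library was made from palates of 3 animals pooled before RNA extraction, so each value describes a pool. The tests set the difference between stages against the spread between pools of a stage only, and not between single animals. Nothing in the labels says whether the pools came from separate litters. The 3 libraries of E16.5, the stage between, were set beside them, and the E13.5 and E14.5 libraries entered only the estimate of spread.

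By E15.5 the 2 palatal shelves have met and fused in the midline, so the interval to birth is one of maturation. Osteoblasts lay down the bony plate of the hard palate directly in mesenchyme, osteoclasts remodel it, and skeletal muscle fibres assemble in the soft palate behind it. The oral side becomes a layered, keratinizing epithelium, the nasal side a ciliated and secretory one, and small mucous glands grow into the tissue below.

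**Figure D1:**
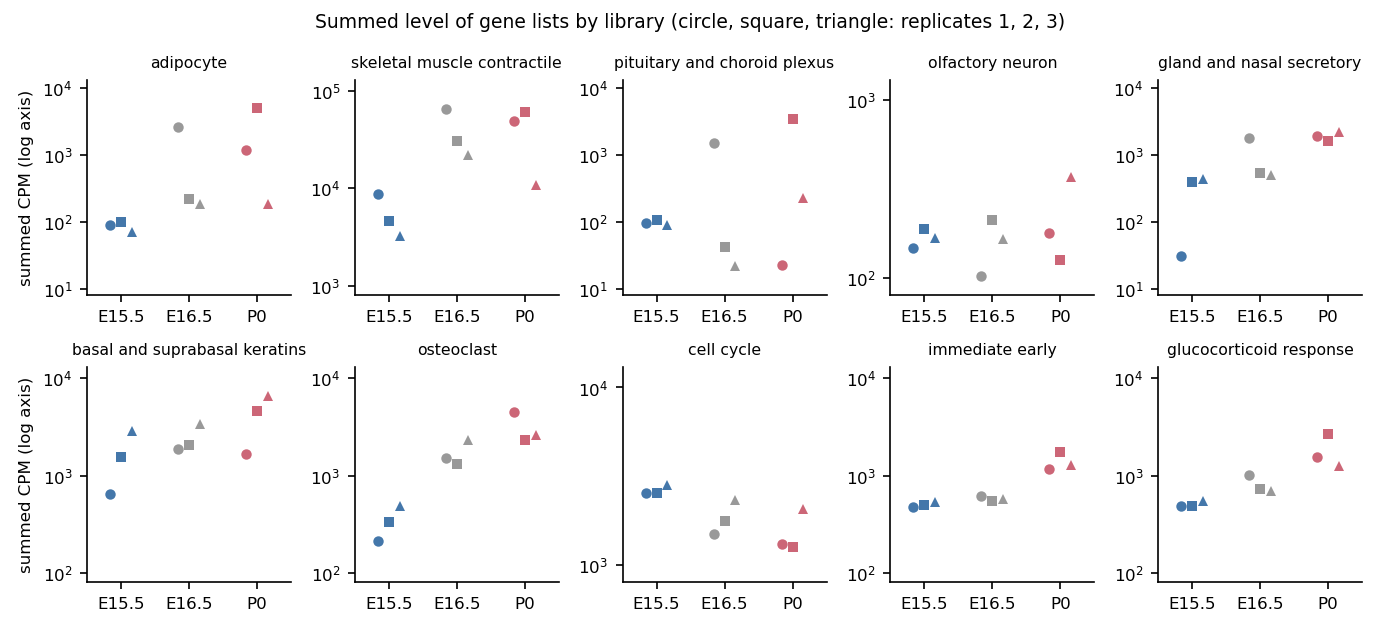
Summed counts per M counts (CPM, log axis) of the members of 10 gene lists in each library at E15.5 (blue), E16.5 (grey) and P0 (red); circles, squares and triangles are replicates 1, 2 and 3. Osteoclast, immediate early and glucocorticoid response genes separate the stages, whereas adipocyte, muscle, pituitary and olfactory genes also differ widely between libraries of 1 stage.

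Counts in genes totalled 58.2 to 63.6 M (1e6) per library at E15.5 and 21.5 to 41.2 M at P0. Levels are given as CPM, the counts of a gene per M counts of its library after scaling for composition. The 3 counts taken as the detection floor were worth 0.0434 to 0.0506 CPM at E15.5 and 0.0832 to 0.131 at P0. The libraries of a stage were not alike. P0 replicate 3 correlated more closely with E15.5 replicates 2 and 3 (Pearson r across genes 0.960 and 0.966) than with P0 replicates 1 and 2 (0.943 and 0.945), and on the first of the principal components of the 6 libraries it lay among those of E15.5. It nevertheless held the genes that set P0 apart most evenly: its osteoclast genes summed to 2639 CPM against at most 488 at E15.5, and embryonic *Hba-x* had no count in it. It was low in adipocyte, muscle and demilune gland genes and high in olfactory genes, with *Omp*, the olfactory marker protein, at 118 CPM against 2.33 and 10.1 in the other P0 libraries, and it held most *Gfap*, a glial filament gene, at 108 against 2.16 and 5.58. P0 replicate 2 held pituitary hormone RNA, with *Gh*, growth hormone, at 2689 CPM and *Pomc* at 286, as did E16.5 replicate 1 with *Gh* at 1204. P0 replicate 1 and E15.5 replicate 1 were highest in genes of sensory neurons at their stage, with *Avil* at 307 and 207 CPM. *Omp* was almost absent from E15.5 replicate 1, at 0.641 CPM against 30.3 and 29.9 in replicates 2 and 3. The 8 olfactory genes together summed to 147 CPM there, against 188 and 168. Transcripts of the Y chromosome were near 0 in E15.5 replicate 1 and P0 replicate 2 (*Ddx3y* 0.152 and 0.152 CPM) and at 16.1 to 46.2 CPM in the other 4. Where the count of changed members of a gene list differs without P0 replicate 3, that count is given beside it.

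Of 22151 genes tested with edgeR's quasi-likelihood test, 5080 changed between the stages at an adjusted p under 0.05, or 22.9%. Of these 2694 were higher at P0 (12.2% of genes tested) and 2386 lower (10.8%). The rises were the larger. At least 2-fold were 1721 rises (7.77% of genes tested) and 721 falls (3.25%), at least 8-fold were 293 rises and 37 falls, and the median log2 fold change was 1.28 among the higher genes and -0.78 among the lower, against 0.01 over all genes tested. The 3 libraries of P0 all lay above those of E15.5 for 19.4% of genes tested, and all below for 19.2%. Without P0 replicate 3 there were 6001 changed genes, 3084 higher (13.5%) and 2917 lower (12.8%), and 4378 were shared with the first set, which is 86.2% of that set and 73.0% of the other. Leaving out E15.5 replicate 2 gave the smallest number, 2472, and 2013 genes passed in all 6 fits that each left out 1 library. The share of genes tested called higher was 7.01%, 5.26% and 6.51% when replicates 1, 2 and 3 of E15.5 were left out in turn, and 8.12% and 7.24% for replicates 1 and 2 of P0. The share called lower was 7.01%, 5.61% and 5.91% in the first 3 of these fits and 7.17% and 8.82% in the others. Counts of list members are to be read against these shares and against those by exon length below. With the 6 libraries fitted alone, 5.26% were higher and 3.65% lower, and with DESeq2 16.2% and 13.2%.

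Changed genes also differed in the length of their exons. Among 17009 protein-coding genes tested, the median exon length was 2750.5 bases for genes higher at P0, 5883.5 for genes lower and 4097 for all. With those genes divided into 3 equal groups by exon length, 21.3% of the shortest group were higher and 4.39% lower at P0, and of the longest group 6.14% were higher and 20.2% lower. The median exon length was 2114 bases for the keratin and basal genes and 1895 for cornified envelope genes. For fetal growth genes it was 7087 and for fibrous matrix genes 7013. The median was 2377 for motile cilium, 2662 for hypoxia response and 1376 for enamel and dentine genes, and 5856 for circadian clock genes. Medians were also under 3006 bases for the osteocyte, myogenic, gland, erythroid, neutrophil, macrophage and antigen presentation lists. The same held for the olfactory, adipocyte, secreted Wnt inhibitor, immediate early and pituitary lists. Lists with a median up to 3006 bases are to be compared with the shortest group, and those from 5463 bases with the longest. The median log2 deviation of the shortest group from its mean over the 15 libraries was 0.17 to 0.36 in the P0 libraries and -0.08 to 0.05 at E15.5. When each library's trend of level against exon length was removed, 4438 genes changed, 2505 higher (11.3%) and 1933 lower (8.73%), of which 3780 were in the first set. The counts of changed list members under that adjustment are given below where they moved by over 1.5 times.

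**Figure D2:**
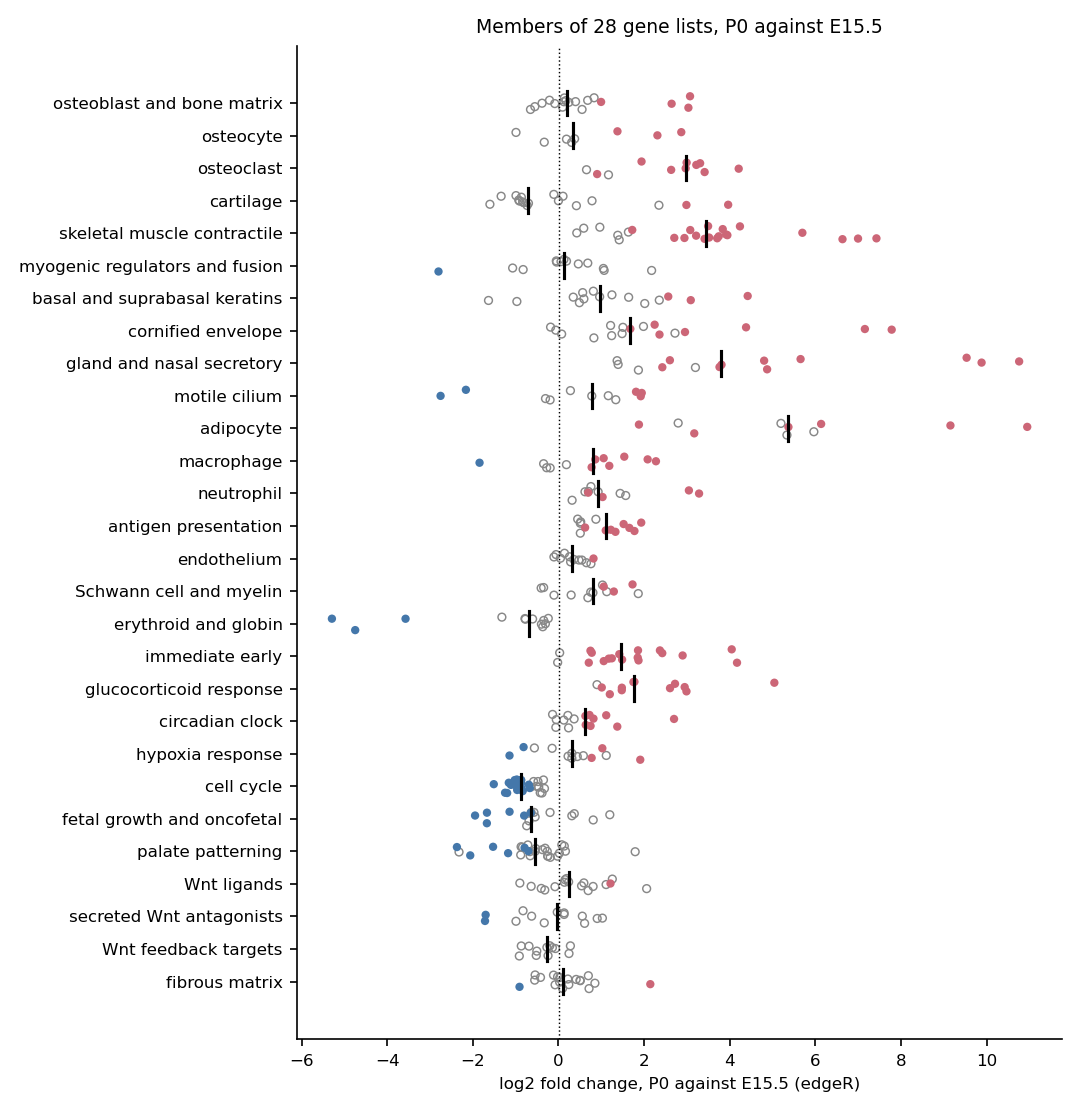
Log2 fold change at P0 against E15.5 of each tested member of 28 gene lists; filled points passed an adjusted p of 0.05 (red higher, blue lower), open points did not, bars are list medians and the dotted line is the median of all genes tested. The osteoclast, immediate early and glucocorticoid response lists lie almost wholly to the right and the cell cycle list wholly to the left.

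Osteoclast genes rose together. Osteoclasts are the multinucleate cells that dissolve bone. Of 11 members tested 9 were higher at P0 and 0 lower, all 11 lay above E15.5 in every P0 library, and the median log2 fold change was 2.97 (3.05 without P0 replicate 3, with 9 still higher). *Acp5* (ENSMUSG00000001348.15, chromosome 9, 22126727 to 22135711), the tartrate-resistant acid phosphatase that marks these cells, was at 12.4, 39.4 and 75.4 CPM in E15.5 replicates 1, 2 and 3 and at 1211, 527 and 616 in those of P0. All P0 libraries stood far above all E15.5 libraries, an 18.5-fold difference (log2 fold change 4.21 ± 0.61 (SE), adjusted p = 0.00159). *Ctsk* (ENSMUSG00000028111.4, chromosome 3, 95499256 to 95509362), cathepsin K, the protease that digests bone collagen, went from 96.7, 122.5 and 185 to 1733, 921 and 1111 CPM (log2 fold change 3.22 ± 0.41 (SE), adjusted p = 0.000915). The order within each stage was the one seen for *Acp5*, with E15.5 replicate 3 and P0 replicate 1 highest. *Mmp9*, a gelatinase of osteoclasts and their precursors, went from 35.9, 94.2 and 138 to 1282, 700.5 and 681 CPM (log2 fold change 3.31 ± 0.42 (SE), adjusted p = 0.000915). *Oscar*, a receptor that stimulates osteoclast formation, was 10.7-fold higher (log2 fold change 3.41 ± 0.40 (SE), adjusted p = 0.0007), and *Ocstamp* and *Dcstamp*, membrane proteins needed for precursors to fuse, were 7.97-fold and 7.85-fold higher. *Atp6v0d2*, a subunit of the proton pump, was 6.2-fold higher and *Itgb3*, the integrin of the sealing zone, 3.84-fold. *Tnfrsf11a*, the receptor RANK, was 1.87-fold higher (log2 fold change 0.90 ± 0.23 (SE), adjusted p = 0.0166), but did not pass without E15.5 replicates 1, 2 or 3 or P0 replicate 1 (adjusted p up to 0.0553). *Nfatc1*, the transcription factor downstream of RANK, and *Calcr*, the calcitonin receptor, had log2 fold changes of 0.66 and 1.17 that did not pass (adjusted p = 0.181 and 0.178). In bulk tissue a larger number of cells of a type and more RNA per cell cannot be told apart.

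**Figure D3:**
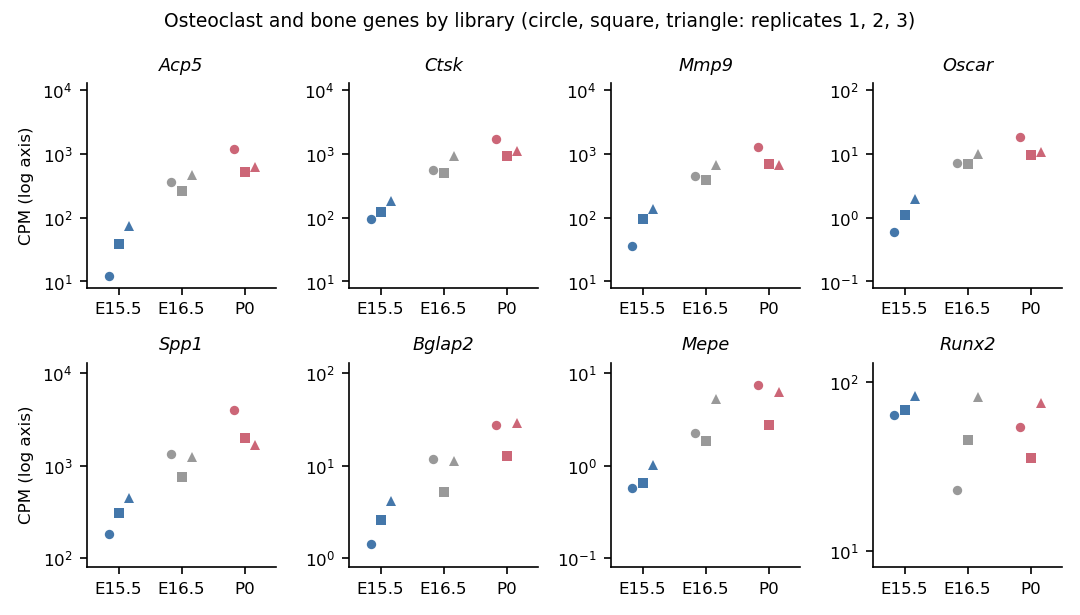
CPM (log axis) of 8 genes in each library at E15.5, E16.5 and P0, with circles, squares and triangles for replicates 1, 2 and 3. The 4 osteoclast genes and *Spp1*, *Bglap2* and *Mepe* are higher at P0 without overlap with E15.5, whereas *Runx2* overlaps.

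Genes of the osteoblast lineage changed in part. In the list of osteoblast and bone matrix genes 4 of 18 were higher and 0 lower, with a median log2 fold change of 0.21, and the same count was higher without P0 replicate 3. *Spp1* (ENSMUSG00000029304.14, chromosome 5, 104435118 to 104441050), which encodes osteopontin, was at 185, 308 and 446 CPM at E15.5 and 4030.1, 2010.1 and 1666 at P0 (8.2-fold, log2 fold change 3.04 ± 0.49 (SE), adjusted p = 0.00239). It is made by osteoblasts and osteoclasts alike, and every P0 library exceeded every E15.5 library. *Bglap* and *Bglap2*, neighbouring and nearly identical genes for osteocalcin between which reads may have been divided, were 6.25-fold and 8.42-fold higher (adjusted p = 0.00961 and 0.00455). *Sparc*, the matrix protein osteonectin, was 2.0-fold higher (log2 fold change 1.00 ± 0.29 (SE), adjusted p = 0.0282), but did not pass without E15.5 replicates 1, 2 or 3 or P0 replicate 1 (adjusted p up to 0.126). The regulators *Runx2* and *Sp7* and the early matrix gene *Ibsp* had overlapping libraries and log2 fold changes of -0.38, -0.65 and 0.13, none past the threshold. *Col1a1* and *Col1a2*, the chains of type I collagen, had 0.55 and 0.68 (adjusted p = 0.226 and 0.138).

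Among 8 osteocyte genes, 3 were higher and 0 lower, with and without P0 replicate 3. *Mepe* (ENSMUSG00000053863.3, chromosome 5, 104325329 to 104338611), a matrix phosphoglycoprotein of osteocytes, went from 0.573, 0.656 and 1.03 to 7.54, 2.74 and 6.27 CPM (7.31-fold, log2 fold change 2.87 ± 0.49 (SE), adjusted p = 0.0043). *Fgf23*, the phosphate-lowering hormone of bone, went from 0.118, 0.0447 and 0.116 to 0.499, 0.427 and 0.479 CPM (log2 fold change 2.31 ± 0.47 (SE), adjusted p = 0.00657), which is low in every library. *Dmp1*, which directs mineral deposition, was 2.6-fold higher (log2 fold change 1.38 ± 0.34 (SE), adjusted p = 0.0139), but did not pass without E15.5 replicates 1 or 2 or P0 replicate 1 (adjusted p up to 0.058). *Sost* (ENSMUSG00000001494.6, chromosome 11, 101962458 to 101967015), which encodes sclerostin, an osteocyte inhibitor of Wnt signalling, had a lower mean at P0. It was at 1.97, 1.73 and 2.31 CPM at E15.5, 4.34, 3.54 and 3.72 at E16.5 and 1.11, 1.28 and 0.61 at P0. Every P0 library lay below every E15.5 library and the E16.5 libraries lay above both, but the difference between P0 and E15.5 did not pass (log2 fold change -0.99 ± 0.36 (SE), adjusted p = 0.0635, and adjusted p = 0.155 without P0 replicate 3). With the exon-length trend removed its adjusted p was 0.0425, and DESeq2 gave 0.024.

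Most cartilage genes did not pass. Of 18, 2 were higher and 0 lower, with a median log2 fold change of -0.72 (-0.48 without P0 replicate 3, where 3 were higher and 1 lower). The median was -0.15 without E15.5 replicate 2, and 1 gene was lower without P0 replicate 2. *Col10a1*, the collagen of hypertrophic cartilage, went from 1.85, 3.58 and 4.3 to 71.9, 64.0 and 16.2 CPM (15.6-fold, log2 fold change 3.96 ± 0.65 (SE), adjusted p = 0.00258). *Chad*, chondroadherin, was 7.94-fold higher (log2 fold change 2.99 ± 0.63 (SE), adjusted p = 0.00765). These 2 rose while *Col2a1*, the main collagen of cartilage, had 451, 1381 and 560.0 CPM at E15.5 and 865, 264 and 237 at P0, overlapping between stages (adjusted p = 0.485).

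Contractile genes of skeletal muscle were higher at P0, unevenly between libraries. Of 24, 18 were higher and 0 lower, with a median log2 fold change of 3.45. The summed level was 8707, 4663 and 3244 CPM at E15.5 and 48935, 60877 and 10742 at P0. P0 replicate 3 lay just above E15.5 replicate 1, the highest of its stage, and far below the other P0 libraries. Leaving out P0 replicate 3 gave 20 higher, and leaving out replicate 2 or 3 of E15.5 gave 8. *Myh1* (ENSMUSG00000056328.14, chromosome 11, 67200052 to 67224575), an adult fast myosin heavy chain, went from 7.37, 2.68 and 2.79 to 716, 884 and 38.5 CPM (128-fold, log2 fold change 6.998 ± 1.46 (SE), adjusted p = 0.0074). *Myh2*, the adult IIa isoform, was 51.9-fold higher and *Myh8*, the perinatal isoform, 13.1-fold (adjusted p = 0.00153 and 0.00945). All 3 kept their calls whichever library was left out. *Myh4*, the adult IIb isoform, was at 0.32, 0.224 and 0.419 CPM and then 36.1, 129.5 and 1.44 (172-fold, log2 fold change 7.43 ± 2.15 (SE), adjusted p = 0.0275), but did not pass without E15.5 replicates 1, 2 or 3 or P0 replicate 2 (adjusted p up to 0.0945). *Myh3*, the embryonic isoform, had 1949, 869 and 721 and 2797, 3372 and 753 CPM, overlapping between stages, and did not pass (log2 fold change 0.97 ± 0.60 (SE), adjusted p = 0.263). The slow fibre genes *Tnni1* and *Tnnc1* had log2 fold changes of 0.59 and 0.43 against 3.95 and 3.52 for their fast counterparts *Tnni2* and *Tnnc2*, and of these 4 the fast ones passed. *Tnnc2* did not pass without E15.5 replicates 2 or 3 (adjusted p up to 0.0511). *Rpl3l*, a ribosomal protein specific to striated muscle, was 163-fold higher (log2 fold change 7.35 ± 1.54 (SE), adjusted p = 0.00748). Few regulators of myogenesis and fusion passed. Of 13, 0 were higher and 1 lower, with a median log2 fold change of 0.13 (0.47 without P0 replicate 3). *Myf6*, a myogenic factor of maturing fibres, was higher without P0 replicate 3 (log2 fold change 2.59, adjusted p = 0.038) and with DESeq2 (adjusted p = 0.0241), against an adjusted p of 0.0713 with all libraries in edgeR. The others included *Myog*, with 155, 53.9 and 66.0 CPM at E15.5 and 139, 116 and 31.8 at P0. The lower one was *Pax3*, a muscle progenitor and neural crest factor, at 0.607, 10.8 and 18.6 and then 0.638, 1.13 and 2.57 CPM (log2 fold change -2.82 ± 0.88 (SE), adjusted p = 0.0371), and did not pass without E15.5 replicates 2 or 3 or P0 replicates 1 or 2 (adjusted p up to 0.136). E15.5 replicate 1 lay below every P0 library, so the groups overlapped.

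Among genes of the oral epithelium, keratins of the wet mucosa and the hard palate were higher. Of 15 keratin and basal genes 3 were higher and 0 lower, with and without P0 replicate 3. As a share this is near the 21.3% higher in the shortest group of protein-coding genes. The number was 5 when E15.5 replicate 3 was left out and 1 when E15.5 replicate 2 was. *Krt76*, a keratin of the hard palate, went from 0.0337, 0.194 and 0.217 to 3.08, 0.579 and 6.18 CPM (21.4-fold, log2 fold change 4.42 ± 1.08 (SE), adjusted p = 0.0139) and kept its call whichever library was left out. *Krt4* and *Krt13*, the keratin pair of wet, non-cornified mucosa, were 8.52-fold and 5.92-fold higher. *Krt4* was at 25.8, 70.3 and 125 CPM and then 129, 892 and 867, with P0 replicate 1 barely above E15.5 replicate 3. *Krt4* (log2 fold change 3.09 ± 0.83 (SE), adjusted p = 0.0207) did not pass without E15.5 replicates 1 or 2 or P0 replicate 2 (adjusted p up to 0.0722), and *Krt13* (log2 fold change 2.57 ± 0.66 (SE), adjusted p = 0.0175) did not pass without E15.5 replicate 2 (adjusted p up to 0.0681). The basal keratins *Krt5* and *Krt14* had 0.96 and 0.82, not past the threshold, and 0.02 and 0.05 without P0 replicate 3. The epidermal pair *Krt1* and *Krt10* had -0.97 and -1.63, with E15.5 replicate 3 highest in both (170.4 and 95.8 CPM). Of 22 cornified envelope genes 17 had enough counts to be tested and 7 were higher, 3 when P0 replicate 3, E15.5 replicate 1 or E15.5 replicate 2 was left out, 4 when P0 replicate 2 was and 10 when E15.5 replicate 3 was. With the exon-length trend removed 4 were. *Tgm3*, a transglutaminase that crosslinks the envelope, was 20.9-fold higher (log2 fold change 4.38 ± 0.91 (SE), adjusted p = 0.00717) and *Cdsn*, which encodes corneodesmosin, 5.14-fold (log2 fold change 2.36 ± 0.50 (SE), adjusted p = 0.00794). Both kept their calls whichever library was left out. *Lce3c*, a late envelope gene, had 2 counts over the E15.5 libraries and 143 over those of P0, a ratio of 152 with an exact counting interval of 41.4 to 1270. Loricrin, *Lor*, had 1.16, 1.04 and 5.76 CPM at E15.5 and 5.38, 1.86 and 24.5 at P0, which overlap (adjusted p = 0.114).

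Secretory genes of glands and nasal epithelium rose, *Dcpp1*, *Dcpp2* and *Dcpp3* being among the 12 largest rises. Of 18, 14 were tested, 10 were higher and 0 lower, and the median log2 fold change was 3.79 (3.73 without P0 replicate 3, with 9 higher). *Muc5b* (ENSMUSG00000066108.7, chromosome 7, 141839070 to 141873084), a gel-forming mucin of airway and salivary mucus, went from 2.22, 8.41 and 8.56 to 416, 325 and 229 CPM (50.4-fold, log2 fold change 5.66 ± 0.78 (SE), adjusted p = 0.00134). It was already at 599, 183 and 180.4 CPM at E16.5. *Ltf*, lactoferrin, *Tff2*, a trefoil peptide that stabilizes mucus, and *Reg3g*, an antibacterial lectin, were 14.02-fold, 29.3-fold and 13.6-fold higher (adjusted p = 0.00174, 0.00175 and 0.0042). The demilune cell genes *Dcpp1*, *Dcpp2* and *Dcpp3* are near-identical neighbours, between which reads may have been divided. *Dcpp1* was at 0, 0.0745 and 0.101 CPM at E15.5, at or about the detection floor, and at 73.2, 101 and 3.35 at P0 (log2 fold change 9.88 ± 1.76 (SE), adjusted p = 0.0035). *Dcpp2* had 2 counts over the E15.5 libraries against 2215 at P0, a ratio of 2359 with an exact counting interval of 652 to 19489. Their level in P0 replicate 3 was far below that in the other P0 libraries. The same order held for *Lipf*, gastric lipase, which went from 0.118, 0.0298 and 0.116 to 84.1, 153 and 0.261 CPM (log2 fold change 9.79 ± 2.15 (SE), adjusted p = 0.00899), for *Bpifb2*, a lipid-binding protein of saliva and mucus, which was 217-fold higher, and for *Dmbt1*, a mucosal defence glycoprotein, which was 150.3-fold higher (adjusted p = 0.00707 and 0.00954). P0 replicate 3 fell below 1 CPM in all 3 of *Lipf*, *Bpifb2* and *Dmbt1*. *Bpifa1*, a secreted protein of nasal epithelium, had 13.6, 319 and 371 and 759, 563 and 1248 CPM and did not pass (adjusted p = 0.151).

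**Figure D4:**
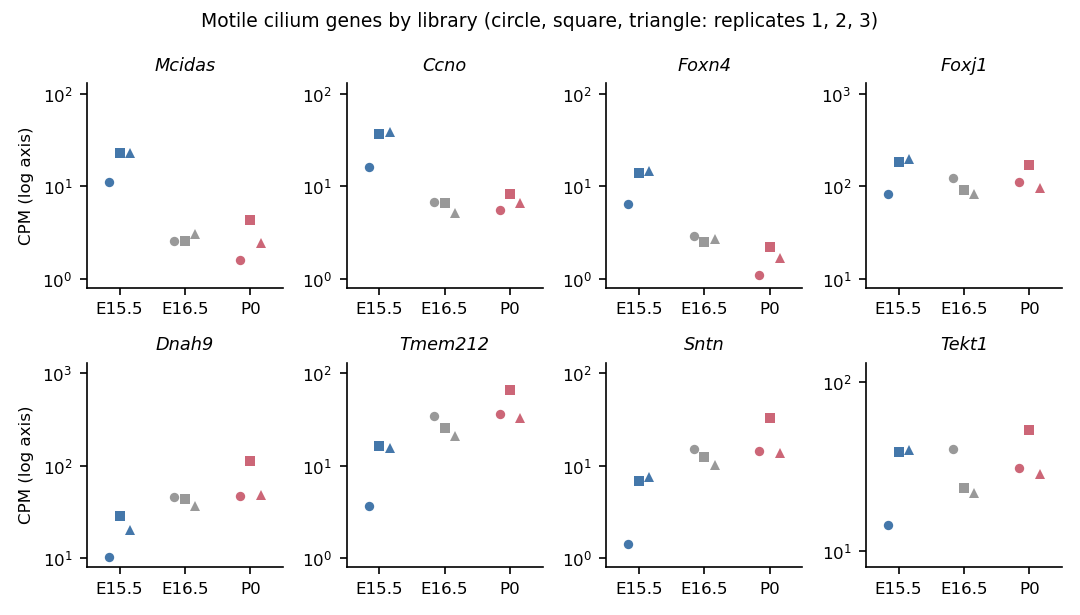
CPM (log axis) of 8 motile cilium genes in each library at E15.5, E16.5 and P0, with circles, squares and triangles for replicates 1, 2 and 3. *Mcidas*, *Ccno* and *Foxn4* fall between E15.5 and E16.5, *Dnah9*, *Tmem212* and *Sntn* are higher at P0, and *Foxj1* and *Tekt1* overlap between stages.

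Of the genes for motile cilia, members changed in both directions. Multiciliated cells first copy many centrioles under a short-lived programme and then assemble beating axonemes, whose parts continue to be made. *Mcidas* (ENSMUSG00000074651.3, chromosome 13, 112993845 to 113000394), the regulator that opens this programme, was at 10.97, 22.9 and 22.6 CPM at E15.5 and 1.61, 4.33 and 2.44 at P0 (6.74-fold, log2 fold change -2.75 ± 0.58 (SE), adjusted p = 0.00738). *Ccno*, an atypical cyclin required for centriole amplification, went from 15.9, 36.4 and 38.1 to 5.46, 8.23 and 6.53 CPM (4.47-fold, log2 fold change -2.16 ± 0.43 (SE), adjusted p = 0.00618). All P0 libraries lay below all E15.5 libraries for both, and both had reached the P0 level at E16.5, with 2.53, 2.57 and 3.01 and 6.8, 6.5 and 5.06 CPM. *Cdc20b*, *Deup1* and *Foxn4* are not in the list and are named because they were among the 12 largest falls. *Cdc20b*, a neighbour of both genes on chromosome 13 that acts in centriole release, was 6.6-fold lower (log2 fold change -2.72 ± 0.62 (SE), adjusted p = 0.0105). *Mcidas*, *Ccno* and *Cdc20b* kept their calls whichever library was left out. *Deup1*, which builds the deuterosome on which centrioles form, was 4.47-fold lower (log2 fold change -2.16 ± 0.62 (SE), adjusted p = 0.0259), and *Foxn4*, a transcription factor of the same step, 7.0-fold lower (log2 fold change -2.81 ± 0.80 (SE), adjusted p = 0.0254). *Deup1* did not pass without E15.5 replicates 2 or 3 or P0 replicates 1 or 3 (adjusted p up to 0.0813), and *Foxn4* did not pass without E15.5 replicates 2 or 3 or P0 replicates 1, 2 or 3 (adjusted p up to 0.0808). In the list of 11 tested cilium genes 3 were higher and 2 lower, the same counts without P0 replicate 3. In the shortest group of protein-coding genes 21.3% were higher and 4.39% lower, so the share of cilium genes higher was near that group's. *Dnah9*, an outer dynein arm heavy chain, had 10.4, 28.4 and 20.3 and then 47.1, 112 and 48.4 CPM (3.51-fold, log2 fold change 1.81 ± 0.53 (SE), adjusted p = 0.0288), and *Tmem212*, a transmembrane protein, and *Sntn*, a protein of the ciliary tip, were 3.79-fold and 3.85-fold higher (adjusted p = 0.0235 and 0.0353). Without P0 replicate 2 none of these 3 passed, and *Tmem212* had an adjusted p of 0.0858. *Dnah9* did not pass without E15.5 replicates 1 or 3 or P0 replicate 2 (adjusted p up to 0.124). *Sntn* did not pass without E15.5 replicates 1, 2 or 3 or P0 replicate 2 (adjusted p up to 0.142), and had an adjusted p of 0.0537 with the exon-length trend removed. *Foxj1*, the factor that drives ciliary gene expression, had 81.6, 181 and 197 and 109.8, 167 and 95.3 CPM, which overlap (log2 fold change -0.30 ± 0.37 (SE), adjusted p = 0.594). The E15.5 library with least olfactory RNA, replicate 1, was also the lowest of its stage for all 11 cilium genes.

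Adipocyte genes were high in P0 replicates 1 and 2 and E16.5 replicate 1 and low in P0 replicate 3. Of 12, 10 were tested and 6 were higher at P0, with 8 when P0 replicate 3 was left out. When replicates 1, 2 and 3 of E15.5 were left out in turn the number was 4, 2 and 3, and when P0 replicate 2 was it was 4. Their summed level was 89.1, 98.2 and 69.9 CPM at E15.5, 2609, 217 and 181 at E16.5 and 1157, 5009.6 and 182 at P0. *Ucp1* (ENSMUSG00000031710.4, chromosome 8, 83290352 to 83298452), the uncoupling protein of brown fat, was at 0.0169, 0.0894 and 0.694 CPM and then at 243, 1396 and 2.57 (1978-fold, log2 fold change 10.95 ± 2.64 (SE), adjusted p = 0.0131), and did not pass without E15.5 replicate 2 (adjusted p up to 0.0566). *Pck1*, which feeds glycerol synthesis in fat, was 1303-fold higher (log2 fold change 10.35 ± 2.58 (SE), adjusted p = 0.0153) with the same order of libraries, and did not pass without E15.5 replicates 1, 2 or 3 (adjusted p up to 0.0565). *Lpl*, lipoprotein lipase, was 9.02-fold higher (log2 fold change 3.17 ± 0.69 (SE), adjusted p = 0.00891) and *Dgat2*, which makes triglyceride, 3.68-fold (log2 fold change 1.88 ± 0.43 (SE), adjusted p = 0.0108), both kept whichever library was left out. *Cfd*, adipsin, was 571-fold higher (log2 fold change 9.16 ± 2.62 (SE), adjusted p = 0.0262), but did not pass without E15.5 replicates 1, 2 or 3 or P0 replicate 2 (adjusted p up to 0.0849). *Adipoq*, adiponectin, did not pass, with E15.5 replicate 2 at 5.66 CPM and P0 replicate 3 at 0.522. *Gh*, 1 of 10 pituitary and choroid plexus genes and the only one of them higher at P0, had 1.35, 5.05 and 4.01 and then 9.99, 2689 and 69.9 CPM (log2 fold change 8.05 ± 2.57 (SE), adjusted p = 0.0403), and did not pass without E15.5 replicates 1, 2 or 3 or P0 replicate 2 (adjusted p up to 0.221). P0 replicate 2 and E16.5 replicate 1 were thus each the highest of their stage in both adipocyte and pituitary genes, and whether tissue taken with the palate differed between libraries was not tested.

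Macrophage genes rose in part and their marker *Cx3cr1* fell. Of 12, 7 were higher and 1 lower, the same counts without P0 replicate 3. Leaving out P0 replicate 1 or any 1 of the E15.5 libraries left 4 higher. *Cd163*, the scavenger receptor for haemoglobin, went from 1.92, 1.43 and 1.56 to 6.49, 10.5 and 6.84 CPM (4.85-fold, log2 fold change 2.28 ± 0.41 (SE), adjusted p = 0.00368), and *Cd68*, a lysosomal protein also found in osteoclasts, was 4.24-fold higher. *Csf1r*, the receptor for the growth factor of macrophages and osteoclasts, went from 56.0, 61.5 and 59.1 to 173, 104 and 126 CPM (2.28-fold, log2 fold change 1.19 ± 0.20 (SE), adjusted p = 0.00267). *Cx3cr1* (ENSMUSG00000052336.7, chromosome 9, 119901616 to 120069879), the fractalkine receptor, went from 22.8, 22.03 and 17.8 to 7.02, 4.6 and 5.83 CPM. It was 3.59-fold lower (log2 fold change -1.84 ± 0.19 (SE), adjusted p = 0.000487), without overlap, and was still at 21.9, 17.7 and 19.6 CPM at E16.5. *Adgre1*, the antigen F4/80, and *Mrc1*, the mannose receptor, had -0.28 and -0.35, neither past the threshold. Of 11 neutrophil genes tested 4 were higher and 0 lower (3 without P0 replicate 3, and 2 without E15.5 replicate 1, P0 replicate 1 or P0 replicate 2). *Lcn2*, lipocalin 2, which secretory epithelium also makes, was 9.75-fold higher (log2 fold change 3.29 ± 0.69 (SE), adjusted p = 0.00748) and *Retnlg* 8.27-fold (log2 fold change 3.05 ± 0.68 (SE), adjusted p = 0.00966), while the granule genes *Ngp* and *Camp* had 0.93 and 0.62 and did not pass.

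Genes of antigen presentation were higher in part. Of 13 antigen presentation genes 8 were higher and 0 lower, the same without P0 replicate 3, and 11 had every P0 library above every E15.5 library. *H2-D1* (ENSMUSG00000073411.11, chromosome 17, 35262730 to 35267499), a class I heavy chain, was at 31.1, 38.04 and 38.9 CPM at E15.5 and 136, 130.4 and 104 at P0 (3.42-fold, log2 fold change 1.78 ± 0.20 (SE), adjusted p = 0.000602). *H2-K1*, the other classical heavy chain in the list, was 3.82-fold higher (log2 fold change 1.93 ± 0.30 (SE), adjusted p = 0.00204). Reads may have been divided between such closely related chains. The peptide transporter genes *Tap1* and *Tap2* were 2.15-fold and 3.15-fold higher and the immunoproteasome subunits *Psmb8* and *Psmb9* 2.87-fold and 2.34-fold, with adjusted p of 0.00961, 0.00699, 0.00794 and 0.0168. *Psmb9* did not pass without E15.5 replicates 1 or 3 (adjusted p up to 0.0572). Of the class II genes, *H2-Ab1* was 2.52-fold higher (log2 fold change 1.33 ± 0.32 (SE), adjusted p = 0.013), whereas *H2-Aa*, *H2-Eb1* and the invariant chain *Cd74* had 0.52, 0.45 and 0.51 and did not pass.

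Embryonic globins fell. *Hba-x* (ENSMUSG00000055609.8, chromosome 11, 32276400 to 32278116), zeta globin of primitive red cells, was at 2.88, 3.58 and 1.45 CPM at E15.5 and 0, 0.183 and 0 at P0 (log2 fold change -5.29 ± 0.73 (SE), adjusted p = 0.00138). *Hbb-y*, the epsilon-like beta chain, went from 9.15, 8.12 and 4.37 to 0.444, 0.915 and 0.435 CPM (11.9-fold, log2 fold change -3.57 ± 0.67 (SE), adjusted p = 0.00458). *Hbb-bh1* had 68 counts over the E15.5 libraries and 1 over those of P0, a ratio of 31.9 with an exact counting interval of 5.54 to 1279. These were the 3 of 12 tested erythroid genes that were lower, with and without P0 replicate 3, and 0 were higher. The adult globins *Hba-a1* and *Hbb-bs*, each with a near-identical neighbour, had overlapping libraries and log2 fold changes of -0.37 and -0.30. Few vessel genes passed. Of 12 endothelial genes 1 was higher, *Pecam1* (1.75-fold, log2 fold change 0.81 ± 0.25 (SE), adjusted p = 0.0339), and did not pass without E15.5 replicates 1, 2 or 3 or P0 replicates 1 or 2 (adjusted p up to 0.136). Of the 12, 2 were higher without P0 replicate 3 and 2 with the exon-length trend removed, *Vwf*, von Willebrand factor, in addition to *Pecam1*. Of 13 Schwann cell and myelin genes tested 3 were higher, *Mal*, *Prx* and *Egr2*, at 3.32-fold, 2.45-fold and 2.08-fold (adjusted p = 0.0214, 0.0278 and 0.0291), and 0 were lower. *Egr2* is also a member of the immediate early list and is counted in both. Each lost its call in some fit that left out 1 library, and 5 of the list were higher when P0 replicate 2 was left out. *Mal* did not pass without E15.5 replicates 1, 2 or 3 or P0 replicate 2 (adjusted p up to 0.112), *Prx* did not pass without E15.5 replicates 1, 2 or 3 or P0 replicate 1 (adjusted p up to 0.132) and *Egr2* did not pass without E15.5 replicates 2 or 3 or P0 replicates 1 or 2 (adjusted p up to 0.111). Of 8 olfactory genes 1 was higher, the widely expressed *Adcy3* (1.41-fold, log2 fold change 0.49 ± 0.16 (SE), adjusted p = 0.0396), and did not pass without E15.5 replicates 1, 2 or 3 or P0 replicates 1, 2 or 3 (adjusted p up to 0.138). Of 5 enamel and dentine genes with enough counts, *Amelx*, amelogenin, was higher, from 0.253, 0.0745 and 0.0723 to 3.66, 1.22 and 0.697 CPM (log2 fold change 3.82 ± 0.74 (SE), adjusted p = 0.0054). As a share, 1 of 5 enamel and dentine genes is near the 21.3% higher in the shortest group of protein-coding genes. No sex-linked gene of 5 passed.

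**Figure D5:**
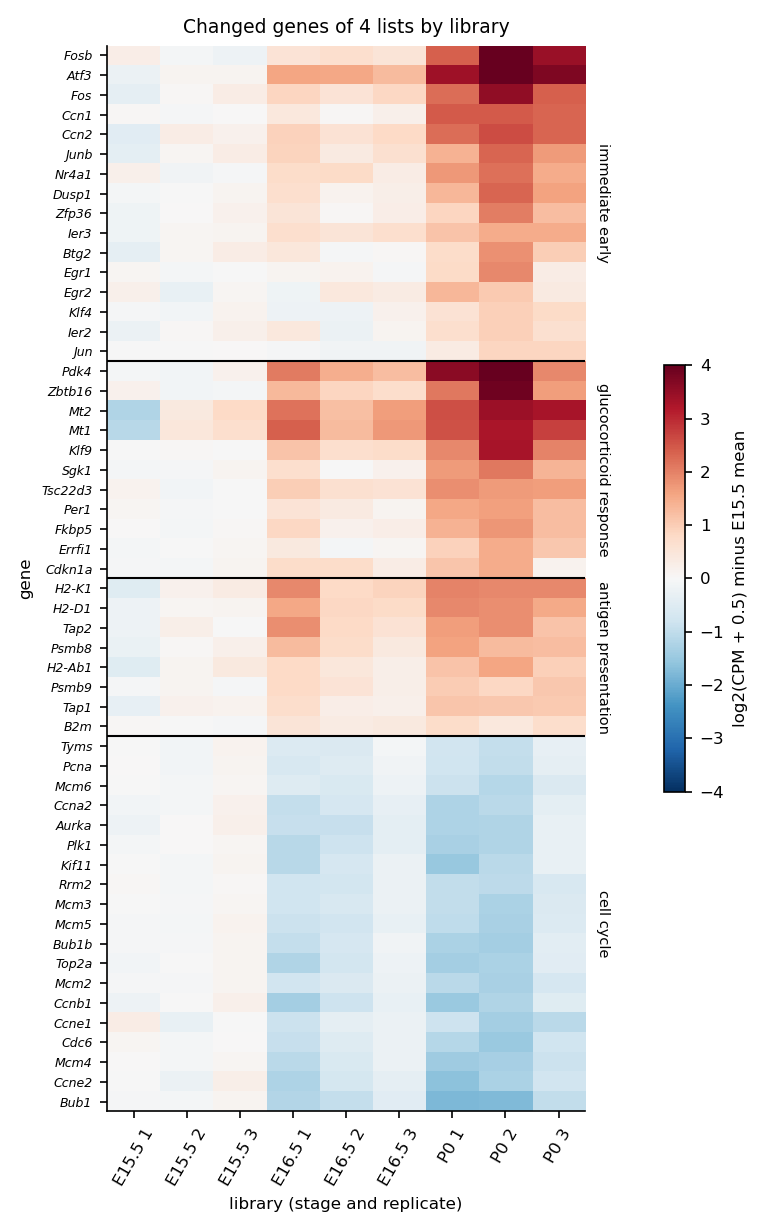
Each of 54 changed genes of the immediate early, glucocorticoid response, antigen presentation and cell cycle lists in the 9 libraries of E15.5, E16.5 and P0, as log2(CPM + 0.5) minus the mean of the 3 E15.5 libraries (red higher, blue lower; colours saturate at 4). Of the P0 libraries, replicate 2 is darkest in most immediate early genes and replicate 3 palest in most cell cycle genes.

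Immediate early genes, which are switched on within minutes of a stimulus without new protein synthesis, were higher at P0 as a group. Of 18, 16 were higher and 0 lower, with a median log2 fold change of 1.45, and 15 were higher without P0 replicate 3. The number was 11 without P0 replicate 2, 12 without E15.5 replicate 1 or 2, 13 without E15.5 replicate 3 and 14 without P0 replicate 1. *Atf3* (ENSMUSG00000026628.13, chromosome 1, 191170296 to 191218039), a stress-induced transcription factor, had one of the smallest adjusted p of any list member. It was at 2.98, 3.94 and 3.86 CPM at E15.5 and 41.9, 83.1 and 53.5 at P0 (16.5-fold, log2 fold change 4.05 ± 0.28 (SE), adjusted p = 2.81e-05), with E16.5 between at 11.7, 11.5 and 9.35. *Fos* (ENSMUSG00000021250.13, chromosome 12, 85473890 to 85477273), a subunit of the AP-1 factor, went from 6.14, 8.35 and 9.98 to 39.4, 99.4 and 44.0 CPM (7.47-fold, log2 fold change 2.90 ± 0.38 (SE), adjusted p = 0.00101). P0 replicate 2 was highest for both, and no library of one stage overlapped the other. *Fosb* was 18.02-fold higher, *Nr4a1*, an orphan nuclear receptor, 3.63-fold, *Dusp1*, a phosphatase that ends MAP kinase signalling, 3.61-fold, and *Ccn1*, a secreted matrix protein, 5.37-fold (adjusted p = 0.000727, 0.000759, 0.00175 and 0.000434). *Myc* and *Egr3* did not pass, with log2 fold changes of 0.03 and -0.02. The summed level was 473, 498 and 535 CPM at E15.5 and 1184, 1759.7 and 1293 at P0, and the share of counts from mitochondrial genes in the same P0 libraries was 1.49%, 2.83% and 1.95%, against 1.70% to 1.77% at E15.5. The part of tissue handling in these values was not tested. In the 250 bases before the start site, 13 of the 18 genes had a RefSeq promoter sequence, 2 of which (*Dusp1* and *Btg2*) held the cyclic AMP response element TGACGTCA, against 1.55% of all 32851 promoter windows, and 1 (*Zfp36*) a CArG box, against 1.47%.

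Genes that glucocorticoid hormone induces rose as well. Of 12, 11 were higher and 0 lower, with and without P0 replicate 3, and the median log2 fold change was 1.76. *Tsc22d3* (ENSMUSG00000031431.13, chromosome X, 140539528 to 140600659), the leucine zipper through which glucocorticoid restrains inflammation, was at 74.1, 62.6 and 67.3 CPM at E15.5 and 246, 222 and 219 at P0. The 3 P0 values lay close together and far above the E15.5 values (3.37-fold, log2 fold change 1.75 ± 0.12 (SE), adjusted p = 2.81e-05). *Per1*, a clock gene with direct glucocorticoid control, went from 71.4, 65.7 and 66.9 to 199, 212 and 159 CPM (2.79-fold, log2 fold change 1.48 ± 0.13 (SE), adjusted p = 0.000267). *Fkbp5*, a co-chaperone of the receptor, and *Sgk1*, a kinase that regulates ion transport, were 2.79-fold and 3.42-fold higher, and *Klf9*, a transcription factor, 6.09-fold (adjusted p = 0.000733, 0.000649 and 0.000759). *Pdk4*, which spares glucose by inhibiting pyruvate dehydrogenase, was at 113, 721 and 34.7 CPM at P0 against 8.29, 8.11 and 9.94 at E15.5 (33.0-fold, log2 fold change 5.04 ± 0.86 (SE), adjusted p = 0.00288), highest in the P0 library with most adipocyte RNA, whose part in this value was not tested. *Angptl4* had 0.90 and did not pass (adjusted p = 0.224).

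*Mt1* and *Mt2* of this list encode metallothioneins, which bind zinc and copper and are also induced by metals. *Mt1* was at 10.5, 31.9 and 37.6 CPM at E15.5 and 139, 231 and 159 at P0 (6.6-fold, log2 fold change 2.72 ± 0.45 (SE), adjusted p = 0.00258), and *Mt2* at 7.0, 22.3 and 29.8 and 103, 184 and 169.8 (7.72-fold, log2 fold change 2.95 ± 0.52 (SE), adjusted p = 0.0034). E15.5 replicate 1 was lowest for both, and all P0 libraries stood above E15.5. Their promoters are shown because the core of the metal response element can be read in them. It was searched as TGCACNC or TGCGCNC on both strands, is in capitals, and was present in 21.4% of all promoter windows. The 250 bases before the start site, 5′ to 3′ on the gene's strand, from RefSeq on GRCm38.p6, were chr8:94178839-94179088 (plus strand) for *Mt1*, with 1 match, and chr8:94172368-94172617 (plus strand) for *Mt2*, with 3.
Mt1: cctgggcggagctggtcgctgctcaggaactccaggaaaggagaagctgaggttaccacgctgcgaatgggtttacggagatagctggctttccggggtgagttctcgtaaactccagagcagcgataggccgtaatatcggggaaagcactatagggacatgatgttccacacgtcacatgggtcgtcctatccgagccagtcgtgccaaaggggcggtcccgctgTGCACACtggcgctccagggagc
Mt2: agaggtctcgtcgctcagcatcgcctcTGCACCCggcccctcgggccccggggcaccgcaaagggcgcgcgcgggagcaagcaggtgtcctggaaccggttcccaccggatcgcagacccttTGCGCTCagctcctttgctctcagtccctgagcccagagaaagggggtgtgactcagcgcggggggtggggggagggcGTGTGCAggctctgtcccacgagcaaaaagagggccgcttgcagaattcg

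Circadian clock genes were higher in part. Of 15, 8 were higher and 0 lower, with 6 when P0 replicate 3 was left out, 5 when E15.5 replicate 1 was and 4 when E15.5 replicate 2, E15.5 replicate 3 or P0 replicate 2 was. *Nr1d1*, the repressor REV-ERB alpha, went from 3.84, 3.74 and 3.38 to 25.6, 32.1 and 13.6 CPM (6.5-fold, log2 fold change 2.70 ± 0.39 (SE), adjusted p = 0.00159). *Nr1d2* and *Bhlhe40* were 2.59-fold and 2.17-fold higher (adjusted p = 0.00385 and 0.00278), whereas *Clock* and *Dbp* had -0.14 and 0.37 and did not pass. The time of day of collection was not used here. Of 13 hypoxia response genes 3 were higher, among them *Adm*, adrenomedullin (3.76-fold, log2 fold change 1.91 ± 0.37 (SE), adjusted p = 0.00526), and 2 lower, among them *Ak4*, a mitochondrial adenylate kinase (2.21-fold, log2 fold change -1.14 ± 0.16 (SE), adjusted p = 0.00159). Without P0 replicate 3 there were 6 higher, and 1 was lower when E15.5 replicate 2, E15.5 replicate 3 or P0 replicate 1 was left out. As a share, the 3 higher with all libraries were near the 21.3% higher in the shortest group of protein-coding genes.

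Cell cycle genes fell. Of 29, 19 were lower at P0 and 0 higher, with a median log2 fold change of -0.87. Without P0 replicate 3, in which they were highest of the P0 libraries, 27 were lower, and without E15.5 replicate 3, P0 replicate 1 or P0 replicate 2, 10 were. The summed level was 2551, 2543 and 2829.8 CPM at E15.5 and 1310.1, 1274 and 2073 at P0. *Mcm4* (ENSMUSG00000022673.5, chromosome 16, 15623897 to 15637400), a subunit of the replicative helicase, was at 97.5, 91.0 and 101 CPM at E15.5 and 35.6, 37.8 and 52.8 at P0 (2.29-fold, log2 fold change -1.20 ± 0.21 (SE), adjusted p = 0.00349). *Mcm2*, *Mcm3*, *Mcm5* and *Mcm6*, of the same helicase, were 2.0-fold, 1.9-fold, 1.9-fold and 1.78-fold lower, and *Cdc6*, which loads it, 2.23-fold. *Mcm7* had -0.35 and did not pass (adjusted p = 0.144). *Bub1*, a kinase of the spindle checkpoint, was 2.85-fold lower, from 35.6, 35.0 and 39.7 to 10.2, 10.4 and 18.2 CPM (log2 fold change -1.51 ± 0.24 (SE), adjusted p = 0.00243). The 10 genes lower in every fit that left out 1 library were *Bub1*, *Mcm2* to *Mcm6*, *Rrm2*, *Cdc6*, *Ccne1* and *Ccne2*, of which *Bub1* is the one that acts in mitosis. *Ccnb1*, the mitotic cyclin B1, was 2.03-fold lower (log2 fold change -1.02 ± 0.28 (SE), adjusted p = 0.0233), but did not pass without E15.5 replicates 2 or 3 or P0 replicates 1 or 2 (adjusted p up to 0.0821). *Top2a*, which untangles chromosomes, was 1.96-fold lower (log2 fold change -0.97 ± 0.26 (SE), adjusted p = 0.02), but did not pass without E15.5 replicates 2 or 3 or P0 replicates 1 or 2 (adjusted p up to 0.0718), and its adjusted p was 0.0626 with the exon-length trend removed. *Mki67*, the antigen Ki-67, was at 310.1, 306 and 305 CPM and then 159, 182 and 276 and did not pass (log2 fold change -0.58 ± 0.20 (SE), adjusted p = 0.0533, and adjusted p = 0.00685 without P0 replicate 3).

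Many promoters of these genes carry CCAAT, the letters bound by the factor NF-Y, and 4 are shown for that reason. Of the 29 genes 24 had a RefSeq promoter sequence, and 19 of those held CCAAT on either strand in the 250 bases before the start site, against 33.8% of all promoter windows. Among the 24, 7 held TTTGAA, the core of the cell cycle homology region, against 16% of all windows, and 2 held GCGGGAA, a form of the E2F site, against 3.82%. Of the 24, 16 were called lower at P0, and of those 13 held CCAAT, 3 TTTGAA and 1 GCGGGAA. In the sequences, 5′ to 3′ on the gene's strand and from RefSeq on GRCm38.p6, capitals mark CCAAT or its reverse complement, 6 times in *Top2a* (chr11:99024190-99024439, minus strand), 3 in *Mcm3* (chr1:20820313-20820562, minus strand), 2 in *Ccnb1* (chr13:100786487-100786736, minus strand) and 2 in *Bub1* (chr2:127831860-127832109, minus strand).
Top2a: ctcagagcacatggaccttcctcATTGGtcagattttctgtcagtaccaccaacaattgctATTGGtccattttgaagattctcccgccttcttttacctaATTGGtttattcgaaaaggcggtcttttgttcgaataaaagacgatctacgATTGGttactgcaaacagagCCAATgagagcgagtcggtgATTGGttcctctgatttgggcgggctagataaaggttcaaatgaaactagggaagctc
Mcm3: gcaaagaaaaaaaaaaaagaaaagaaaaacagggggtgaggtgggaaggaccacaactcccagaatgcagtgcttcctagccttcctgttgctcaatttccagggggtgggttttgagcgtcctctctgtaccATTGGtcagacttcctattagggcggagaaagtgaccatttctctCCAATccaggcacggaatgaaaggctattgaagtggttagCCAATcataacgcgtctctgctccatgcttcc
Ccnb1: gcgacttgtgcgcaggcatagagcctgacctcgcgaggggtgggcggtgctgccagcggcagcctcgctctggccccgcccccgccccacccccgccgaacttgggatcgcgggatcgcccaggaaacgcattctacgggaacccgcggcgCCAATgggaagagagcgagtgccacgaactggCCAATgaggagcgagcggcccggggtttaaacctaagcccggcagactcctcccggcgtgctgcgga
Bub1: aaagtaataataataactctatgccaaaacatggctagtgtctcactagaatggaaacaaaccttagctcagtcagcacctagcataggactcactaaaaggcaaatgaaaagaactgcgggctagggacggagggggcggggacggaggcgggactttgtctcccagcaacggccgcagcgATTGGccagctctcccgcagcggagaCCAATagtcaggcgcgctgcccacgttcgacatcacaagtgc

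Fetal growth genes fell in part. Of 16, 6 were lower and 0 higher (5 lower and 1 higher without P0 replicate 3, and 4 lower without P0 replicate 1 or any 1 E15.5 library). *Igf2bp1* (ENSMUSG00000013415.9, chromosome 11, 95957163 to 96005940), an RNA-binding protein that stabilizes growth-related messages before birth, was at 54.3, 40.1 and 41.8 CPM at E15.5 and 12.4, 16.1 and 14.3 at P0. The groups were well apart and P0 was 3.18-fold lower (log2 fold change -1.67 ± 0.16 (SE), adjusted p = 0.000379). Its relatives *Igf2bp2* and *Igf2bp3* were 1.56-fold and 1.74-fold lower (adjusted p = 0.0099 and 0.00526, and 0.055 for *Igf2bp2* with the exon-length trend removed). *Lin28b*, a block on the let-7 microRNAs, was 3.18-fold lower (log2 fold change -1.67 ± 0.44 (SE), adjusted p = 0.0183), and did not pass without E15.5 replicate 1 (adjusted p up to 0.0673). *Hmga2*, a chromatin protein and let-7 target, went from 31.4, 46.2 and 50.4 to 4.88, 5.58 and 23.0 CPM (log2 fold change -1.95 ± 0.53 (SE), adjusted p = 0.021). P0 replicate 3 was well above the other P0 libraries, and *Hmga2* did not pass without E15.5 replicates 2 or 3 or P0 replicates 1 or 2 (adjusted p up to 0.0709). The imprinted growth genes *Igf2* and *H19* had -0.20 and 1.20 and did not pass (adjusted p = 0.723 and 0.0554).

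Of 27 genes that pattern the palate, 6 were lower and 0 higher, with and without P0 replicate 3, but 3 were when E15.5 replicate 1 or P0 replicate 2 was left out, 2 when E15.5 replicate 3 or P0 replicate 1 was, and 1 when E15.5 replicate 2 was. With the exon-length trend removed 3 were. The median log2 fold change of the list was -0.54 (-1.03 without P0 replicate 3). *Prrx1*, a homeobox factor of craniofacial mesenchyme, was at 242, 238 and 261 CPM and then 93.9, 94.7 and 139 (2.26-fold, log2 fold change -1.18 ± 0.27 (SE), adjusted p = 0.0111). It was the one of the 6 that passed whichever library was left out, and its adjusted p was 0.0548 with the exon-length trend removed. *Alx4*, a homeobox factor of the frontonasal region, was at 90.8, 62.5 and 77.8 CPM and then 12.95, 4.21 and 38.5 (4.17-fold, log2 fold change -2.06 ± 0.66 (SE), adjusted p = 0.0419), and did not pass without E15.5 replicates 1, 2 or 3 or P0 replicates 1 or 2 (adjusted p up to 0.119). *Tbx22*, a T-box factor mutated in X-linked cleft palate, was at 1.75, 3.92 and 5.29 CPM and then 0.277, 0.152 and 1.79 (5.17-fold, log2 fold change -2.37 ± 0.75 (SE), adjusted p = 0.0381), and did not pass without E15.5 replicates 2 or 3 or P0 replicates 1 or 2 (adjusted p up to 0.114). P0 replicate 3 was the highest P0 library for *Prrx1*, *Alx4* and *Tbx22*, and for *Tbx22* it lay just above E15.5 replicate 1. *Shox2*, of the anterior palate, was 2.88-fold lower (log2 fold change -1.53 ± 0.46 (SE), adjusted p = 0.0314), and did not pass without E15.5 replicates 1, 2 or 3 or P0 replicate 1 (adjusted p up to 0.097). *Tbx3* and *Mn1* were 1.73-fold and 1.63-fold lower (adjusted p = 0.0366 and 0.0273). *Tbx3* did not pass without E15.5 replicates 1, 2 or 3 or P0 replicates 2 or 3 (adjusted p up to 0.109), and *Mn1* did not pass without E15.5 replicates 1 or 2 or P0 replicates 1 or 3 (adjusted p up to 0.11). With the exon-length trend removed *Alx4*, *Tbx3* and *Mn1* had adjusted p of 0.0626, 0.103 and 0.074. *Pax9* (ENSMUSG00000001497.18, chromosome 12, 56691767 to 56712822), a paired box factor required for palate formation, was at 28.5, 59.4 and 61.7 CPM at E15.5, 23.8, 46.4 and 36.8 at E16.5 and 29.0, 55.9 and 41.0 at P0. The stages overlapped and the difference did not pass (log2 fold change -0.25 ± 0.39 (SE), adjusted p = 0.678). *Msx1* was at 16.6, 45.3 and 79.6 and 4.13, 9.76 and 63.4 CPM, with a log2 fold change of -0.88 (adjusted p = 0.487) and -2.76 (adjusted p = 0.0227) without P0 replicate 3.

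Most secreted inhibitors of Wnt signalling did not pass. Of 13, 2 were lower and 0 higher (3 lower without P0 replicate 3, 3 with the exon-length trend removed, and 2 higher without P0 replicate 2). With DESeq2 2 were higher and 3 lower. The share lower was near the 10.8% of all genes tested, with 4.39% lower in the shortest group of protein-coding genes. The list median log2 fold change was -0.03, and from -0.75 to 0.47 with 1 library left out. *Dkk2* (ENSMUSG00000028031.6, chromosome 3, 132085292 to 132180304), which blocks the Wnt co-receptor, was at 75.6, 55.3 and 55.6 CPM at E15.5 and 20.1, 17.5 and 19.2 at P0 (3.28-fold, log2 fold change -1.71 ± 0.28 (SE), adjusted p = 0.00239). *Sfrp2*, a soluble Wnt-binding protein, went from 481, 507 and 417 to 167, 86.1 and 179 CPM (3.25-fold, log2 fold change -1.70 ± 0.34 (SE), adjusted p = 0.00632). The stages were well apart for both, both were already lower at E16.5 (30.1, 22.7 and 26.5 CPM for *Dkk2*, 117, 158 and 211 for *Sfrp2*), and both passed whichever library was left out. Of 17 Wnt ligands 1 was higher, *Wnt4*, from 18.96, 44.2 and 54.1 to 68.95, 112 and 91.0 CPM (2.32-fold, log2 fold change 1.21 ± 0.37 (SE), adjusted p = 0.032), and did not pass without E15.5 replicates 1 or 2 or P0 replicates 2 or 3 (adjusted p up to 0.109). *Wnt5a* had -0.90 (adjusted p = 0.102). Without P0 replicate 3 no ligand was higher and 1 lower, *Wnt3* (-1.25, adjusted p = 0.0319, against 0.286 with all libraries), and the median of the list was -0.25 in place of 0.24. In the fit without E15.5 replicate 1 and in that with the replicate block, 1 ligand was lower. Of 12 genes that Wnt signalling feeds back on, 0 passed at an adjusted p of 0.05 with edgeR on all libraries and 3 at an unadjusted p of 0.05. With DESeq2 2 of them were lower, with the replicate block 2, and in the fit without E15.5 replicate 1, 1 was. Without P0 replicate 3, 3 were lower: *Lef1* (-1.60, adjusted p = 0.0179), *Nkd1* (-1.07, adjusted p = 0.00814) and *Ccnd1* (-0.74, adjusted p = 0.00995). Of 19 genes of fibrous matrix 1 was higher, *Tnxb*, tenascin X (4.43-fold, log2 fold change 2.15 ± 0.61 (SE), adjusted p = 0.0259), and 1 lower, *Fbn2*, fibrillin 2 (1.88-fold, log2 fold change -0.91 ± 0.24 (SE), adjusted p = 0.0202). *Tnxb* did not pass without E15.5 replicates 2 or 3 or P0 replicates 1 or 2 (adjusted p up to 0.0911), and *Fbn2* did not pass without E15.5 replicates 1 or 2 or P0 replicates 1 or 3 (adjusted p up to 0.0685). With the exon-length trend removed the adjusted p of *Fbn2* was 0.123. Without P0 replicate 3 there were 2 higher, *Tnxb* and *Prelp*, and 0 lower. *Col3a1*, *Col5a1* and *Dcn* had log2 fold changes of 0.24, 0.03 and 0.10.

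The remaining genes among the 12 largest falls were *Zfhx4*, *Ccdc18*, *Il17b* and *Gpc2*. *Zfhx4* (ENSMUSG00000025255.18, chromosome 3, 5218526 to 5415857), a zinc finger and homeobox factor, went from 94.0, 89.5 and 75.9 to 17.7, 26.9 and 32.1 CPM (3.39-fold, log2 fold change -1.76 ± 0.27 (SE), adjusted p = 0.00202). *Ccdc18*, which encodes a coiled-coil protein, was 4.11-fold lower (log2 fold change -2.04 ± 0.33 (SE), adjusted p = 0.00239), and both passed whichever library was left out. *Gpc2*, a glypican, was 3.37-fold lower (log2 fold change -1.75 ± 0.50 (SE), adjusted p = 0.0262), but did not pass without E15.5 replicates 1, 2 or 3 or P0 replicates 1 or 2 (adjusted p up to 0.085). *Il17b*, an interleukin, was at 23.2, 8.57 and 8.55 CPM and then 4.58, 3.32 and 2.57 (3.84-fold, log2 fold change -1.94 ± 0.59 (SE), adjusted p = 0.0341), and did not pass without E15.5 replicate 1 or P0 replicates 1, 2 or 3 (adjusted p up to 0.142). E15.5 replicate 1, the library of that stage with most sensory neuron RNA, was the highest for *Il17b*.

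When the 6 libraries were fitted without the other stages, most lists had fewer members called. Endothelial genes had 2 higher in place of 1, and Wnt feedback genes 1 lower in place of 0. Osteoclast genes had 9 higher, glucocorticoid response genes 10, immediate early genes 12, muscle genes 13, gland genes 8, antigen presentation genes 7 and macrophage genes 7, and cell cycle genes had 10 lower. Palate patterning genes had 2 lower and clock genes 3 higher. Cornified envelope and adipocyte genes had 1 higher each, and keratin, Schwann cell and motile cilium genes had 0 higher. Of 184 changed genes among those listed or named, 114 kept their call in that fit.

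The E16.5 libraries were used to ask whether the change was divided unevenly between the steps before and after that stage. The mean of E16.5 lay between those of E15.5 and P0 for 92.7% of the changed genes, and a median of 59.9% of the log2 difference had been reached, 66.0% for genes higher at P0 and 54.1% for genes lower. These genes were chosen for a difference between E15.5 and P0 in the same libraries, which favours a value between. The share was not computed over all genes tested, so these figures are not read as a result about timing. Tested against the midpoint of E15.5 and P0 with edgeR, 0 genes passed at an adjusted p of 0.05 and 1528 of 22151 (6.9%) at an unadjusted p of 0.05, and DESeq2 called 80. By list, summed osteoclast genes were at 1524, 1324 and 2307 CPM at E16.5, between 214, 334 and 488 at E15.5 and 4529, 2345 and 2639 at P0. Summed immediate early genes were at 621, 547 and 579, close to their E15.5 level. Abundant genes weigh most in such sums, and *Atf3* of the immediate early list lay between the stages at E16.5. Whether these lists differed in timing was not tested.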

How the data were processed

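RNA-seq counts per gene were taken as the authors deposited them. Per the file headers, read pairs were counted with featureCounts v2.0.1 (reversely stranded, paired) on the GENCODE M18 annotation, from BAM files whose names record cutadapt trimming and marked duplicates. Per the submitters' processing notes, cutadapt 3.4, FastQC 0.11.9, Bowtie2, HISAT2 2.2.1, SAMtools 1.12 and Subread 2.0.1 were used with mm10. Parameters beyond these are not given in the sources used here. Unless another fit or a left-out library is named, p-values are from edgeR's quasi-likelihood test (edgeR 4.0.16, limma 3.58.1, R 4.3.3) on the 15 libraries. That fit had 1 coefficient per stage, so that the 5 stages share the estimate of spread. Genes passed filterByExpr (minimum count 10), scaling was TMM, and p-values were adjusted by Benjamini-Hochberg over the 22151 genes tested, with 0.05 as the threshold. The SE of a log2 fold change was derived from its F statistic. The procedure was tested on simulated data in which every stage had the same spread. That test cannot show how the procedure behaves with the larger spread at P0.

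Named genes were the 12 largest rises and 12 largest falls among protein-coding genes past the threshold with at least 10 CPM on average in whichever stage was higher, and no overlap between P0 and E15.5 libraries, list members meeting the same conditions, other members by their values, and *Sost* and *Pax9*. Members and lists were chosen with earlier results of these data known. The fit with the exon-length trend as an offset was chosen after seeing the data. Other fits used DESeq2 1.42.0, its size factors, upper-quartile scaling, no filter, a mean of at least 1 CPM, the 6 libraries alone, a replicate block, and each library left out. Intervals for genes with 1 to 3 counts in a stage cover counting error only. Promoter windows were RefSeq's for GRCm38.p6, and gene positions are GRCm38.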

Additional observations from a re-analysis of the deposited data

How the results depend on the processing

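The scaling, filter, DESeq2 and exon-length alternatives kept the numbers of genes changed, higher and lower within 1.5 times of those reported. The 6 libraries fitted alone gave 1809 changed genes of 20298 tested, 1068 higher and 741 lower. There the estimate of spread came from fewer samples and only from the stages compared. Estimated by stage, the biological coefficient of variation, the spread between libraries relative to the mean, was largest at P0. It was 0.444 at P0, 0.364 at E16.5, 0.315 at E15.5, 0.241 at E14.5 and 0.276 at E13.5. The fit of all 15 libraries shared 0.332, which is below the P0 value. The part of each in the smaller number was not tested. Leaving out 1 library gave 2472 to 6001 changed genes, 1196 to 3084 higher and 1276 to 2917 lower, the fewest without E15.5 replicate 2 and the most without P0 replicate 3. Without E15.5 replicates 1 and 3 in turn there were 3234 and 2821 changed genes, and without P0 replicate 2 there were 1658 higher. The test of E16.5 against the midpoint called 80 genes with DESeq2, 1 with no filter on low counts and 1 with the replicate block, and 0 in each fit that left out 1 library. Of 186 changed genes listed or named, DESeq2 kept 185 calls, the exon-length offset 164 and the fits without 1 library 117 to 165. The sensory neuron genes *Avil* and *Nefl* turned direction without P0 replicate 1, with log2 fold changes of -2.98 and -2.35 against 0.06 and 0.14 (highest 0.98 and 0.97 without E15.5 replicate 1). Same-numbered E15.5 and P0 libraries had correlated deviations of 0.54, 0.05 and 0.48, and E15.5 replicate 2 correlated best with P0 replicate 3, so the numbers were not taken to pair the samples. A fit with the replicate number as a block gave 5215 changed genes, 2654 higher and 2561 lower, and kept 175 of the 186 calls. P0 replicate 3, with 21.5 M counts, was the shallowest of the 6 libraries, so genes under about 0.131 CPM could not be detected in it.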
